A study of Homo sapiens with 4 samples.

Results

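The transcript levels of 10 genes used as markers of the naïve state of human pluripotent stem cells, KLF17, KLF4, KLF5, TFCP2L1, TBX3, ESRRB, DPPA3, DPPA5, DNMT3L and SUSD2, were compared between Elf1 cells grown in 2-D and in 3-D culture. The genes were taken by name, with their Ensembl identifiers matched to GENCODE symbols. No threshold on a measured value picked them, but earlier results of these data were known when they were chosen. All 10 were found among the 60564 gene identifiers of the count data. Of these 10 genes, 8 had enough counts to be tested between the culture conditions, and DPPA5 and ESRRB did not.

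Naïve pluripotent cells resemble the epiblast of the embryo before implantation, and primed cells resemble the epiblast after implantation. The naïve state is held by a network of transcription factors that includes Krüppel-like factors and TFCP2L1, is fed by LIF signaling through STAT3 and by inhibition of MEK and GSK3, and is known for a genome with little DNA methylation. Germline-associated genes such as DPPA3, DPPA5 and DNMT3L are active in naïve cells, and SUSD2 encodes a protein on their surface that is used to sort them alive.

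Elf1 is a single established human embryonic stem cell line derived in naïve conditions. The 2-D group holds 2 libraries of Elf1 cells grown as adherent cultures on Matrigel-coated plastic. The 3-D group holds 2 libraries of Elf1 cells encapsulated for 21 days in scaffolds that self-assemble from PEG-8-SH and PEG-8-Acr, multi-arm poly(ethylene glycol) with thiol and acrylate ends. No genetic change is named for either group, and both were kept in the same ESC expansion medium, which for Elf1 cells contains FGF2, LIF, the GSK3 inhibitor CHIR99021 and a MEK inhibitor. The cells had been moved from mouse feeder cells to Matrigel before encapsulation. Adherent cells were passaged every few days and encapsulated cells were not, so culture geometry and time without passage cannot be told apart.

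Total RNA depleted of ribosomal RNA was sequenced with paired ends, and the counts per library summed to 33833778 and 30114220 in 2-D and to 21154409 and 18276147 in 3-D. Levels are given as CPM, the count of a gene relative to the total of its library, with totals scaled by TMM, a factor that centres most genes on no change. Changes are given as the log2 fold change of 3-D over 2-D, with the standard error (SE) and an adjusted p from the edgeR quasi-likelihood test over 22555 genes. A gene was called where the Benjamini-Hochberg adjusted p was below 0.05. With 2 libraries per condition, the p-values rest on the spread between those libraries, with the spread of each gene drawn toward that of all genes. The typical biological coefficient of variation, which leaves out counting noise, was 5.10%.

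KLF5, a zinc finger factor of the naïve network that is also active in trophoblast and in epithelia, was the one marker called, and it rose in 3-D by 1.20-fold (95% interval 1.12 to 1.28). Thus 1 of the 8 tested markers rose and 0 fell, where 7.9% of all tested genes were called and 4.54% were called as higher in 3-D. At an unadjusted p below 0.05, the count was 2 of 8, KLF5 and SUSD2, both higher in 3-D, and 21.3% of all tested genes passed at that level. The median log2 fold change of the 8 markers was 0.10, beside a median of all tested genes of -0.00013 and a central 95% of genes between -0.74 and 0.60. With scaling by library size alone, the median of the markers was 0.03 and that of all tested genes -0.06. The libraries of the conditions did not overlap for 5 of the 8 markers, and the same held for 50.5% of all tested genes. Summed over the 10 markers, the level was 124 to 126 CPM in the 2-D libraries and 135 to 137 CPM in the 3-D libraries. Most of that difference was KLF5, since the other 9 summed to 77.6 to 78.3 CPM in 2-D and 77.8 to 81.0 CPM in 3-D.

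**Figure D1:**
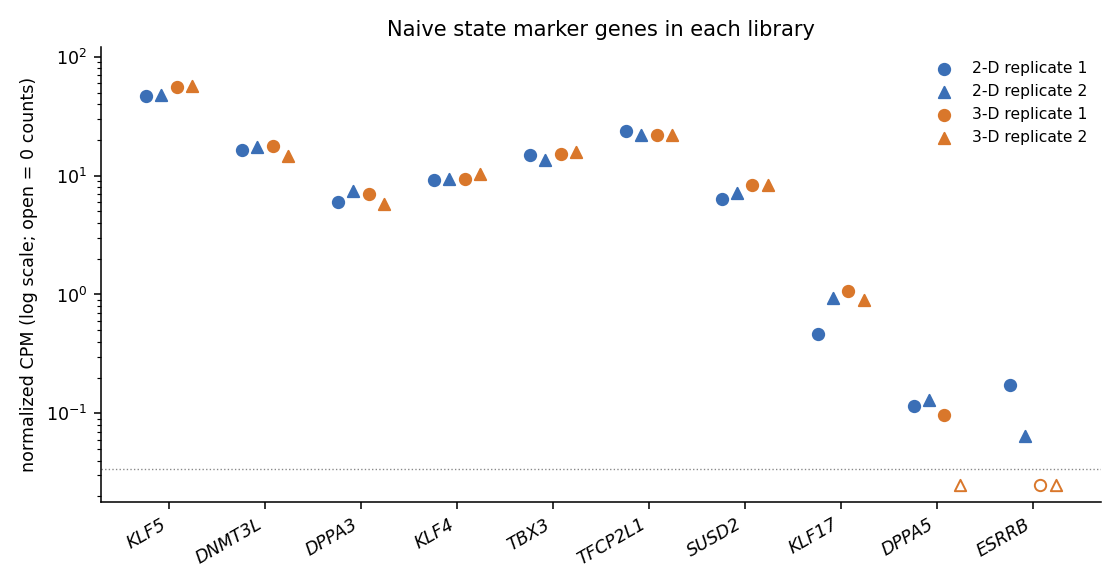
CPM of the 10 markers in each of the 4 libraries, on a log axis, with 1 position per gene, 2-D libraries in blue and 3-D libraries in orange, and open symbols below the dotted line for 0 counts. KLF5 lies at 46.8 and 47.9 CPM in 2-D and at 56.1 and 57.1 CPM in 3-D, while DPPA5 and ESRRB lie at or near 0 in every library.

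KLF5 lies on the forward strand of chromosome 13 (hg38, chr13:73054976-73077541; ENSG00000102554.14), a protein-coding gene with 7 merged exons that sum to 3679 bases. RefSeq gives it 2 start sites, and the 250 bases before each are shown because KLF5 is the marker that rose and its starts differ in CG content. They are printed 5' to 3' on the forward strand from RefSeq (GRCh38.p14), at chr13:73054726-73054975 and chr13:73058755-73059004, with each CG dinucleotide, the site that DNA methyltransferases act on, in capitals.
KLF5 start 1: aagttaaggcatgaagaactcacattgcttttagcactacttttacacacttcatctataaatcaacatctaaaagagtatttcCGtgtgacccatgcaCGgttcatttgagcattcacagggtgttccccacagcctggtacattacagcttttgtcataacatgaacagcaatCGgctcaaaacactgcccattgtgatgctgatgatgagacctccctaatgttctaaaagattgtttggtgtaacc
KLF5 start 2: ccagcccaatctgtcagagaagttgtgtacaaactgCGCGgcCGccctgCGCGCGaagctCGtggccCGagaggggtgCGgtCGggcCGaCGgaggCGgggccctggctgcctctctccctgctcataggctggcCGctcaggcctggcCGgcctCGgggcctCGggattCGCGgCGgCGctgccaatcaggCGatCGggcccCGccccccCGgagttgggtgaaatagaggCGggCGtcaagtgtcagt
The first window holds 3 CG dinucleotides and is 40.8% G and C, and the other holds 27 and is 70.8% G and C. Among the 35116 windows of the same length in the RefSeq table, 22.9% hold fewer CG dinucleotides than the first and 82.3% hold fewer than the other. Counts were made per gene, so they do not say from which start the KLF5 RNA came.

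For KLF5, the counts were 1616 and 1478 in 2-D and 1156 and 1026 in 3-D, which is 46.8 and 47.9 CPM against 56.1 and 57.1 CPM. Both 3-D libraries lay above both 2-D libraries, and the gap between the conditions was wider than the gap within either. The log2 fold change was 0.26 (SE 0.04, 95% interval 0.16 to 0.35, edgeR quasi-likelihood adjusted p = 0.00336). KLF5 was called under the 10 alternative settings that keep all libraries, with adjusted p between 3.97e-05 and 0.0262 and a log2 fold change between 0.19 and 0.26. It was also called with each of the 4 libraries left out (adjusted p 0.00341 to 0.0418), where the lone library of a condition is assumed to vary like the other condition.

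KLF4, a Krüppel-like factor used in reprogramming, lies on the reverse strand of chromosome 9 (chr9:107484852-107490482; 5 merged exons). It had 319, 289, 194 and 186 counts, or 9.25 and 9.36 CPM in 2-D and 9.42 and 10.4 CPM in 3-D. The 3-D libraries were the higher ones, but the lower of them was close to the 2-D pair. The log2 fold change was 0.09 (SE 0.10, 95% interval -0.13 to 0.30, adjusted p = 0.701), an interval that spans 0 and also holds the KLF5 value. A long noncoding RNA on the opposite strand shares 357 exonic bases with KLF4, and the strand setting of the counting is not given in the sources used here.

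KLF17, a Krüppel-like factor found in human naïve cells and in the early human embryo, lies at chr1:44118821-44135140 on the forward strand with 4 merged exons. Its counts were 16 and 29 in 2-D and 22 and 16 in 3-D, or 0.464, 0.939, 1.07 and 0.891 CPM. The filter on low counts sat near 0.390 CPM. KLF17 was thus close to it in the first 2-D library and further above it in the others, and the conditions overlapped. The log2 fold change of 0.51 had an SE of 0.38 and a 95% interval of -0.32 to 1.33 (adjusted p = 0.507), which spans a fall as well as a rise. It went from 0.07 without the first 2-D library to 1.08 without the other, so the first 2-D library, the lowest of the 4, sets its size.

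TFCP2L1, a grainyhead-family factor downstream of LIF and STAT3 in the naïve network, is a gene of 15 merged exons on the reverse strand at chr2:121216587-121285202. It had 821 and 684 counts in 2-D and 456 and 397 in 3-D, or 23.8, 22.2, 22.1 and 22.1 CPM. The first 2-D library stood above the other 3, which lay together. TFCP2L1 thus had a log2 fold change of -0.06 (SE 0.07, 95% interval -0.21 to 0.10, adjusted p = 0.734).

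TBX3, a T-box factor that acts in the naïve network of the mouse and in early lineage choice, has 6 merged exons on the reverse strand at chr12:114670255-114684175. Its levels were 15.0 and 13.6 CPM in 2-D (517 and 421 counts) and 15.1 and 15.8 CPM in 3-D (311 and 283 counts). The 3-D libraries were the higher ones, and the lower of them was next to the higher 2-D library. The difference was 0.11 on the log2 scale (SE 0.09, 95% interval -0.08 to 0.29, adjusted p = 0.541). An antisense gene, TBX3-AS1, shares 196 exonic bases with it and had 21 to 36 counts per library.

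ESRRB, an orphan nuclear receptor central to the mouse naïve network, lies on the forward strand at chr14:76310712-76501837 with 12 merged exons. It had 6 and 2 counts in 2-D and 0 in both 3-D libraries, where 3 counts, the limit that a count of 0 allows, would be 0.146 and 0.167 CPM. So few counts do not show whether the conditions differ, and ESRRB did not pass the filter on low counts. In a fit without that filter, KLF5 was the only marker called.

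Of the germline-associated genes, DNMT3L encodes a catalytically inactive partner of the de novo DNA methyltransferases, DPPA3 (also called STELLA) encodes a protein that limits maintenance methylation by holding UHRF1 back, and DPPA5 encodes a KH-domain RNA-binding protein. The 250 bases before the RefSeq starts of DPPA3 and DPPA5 are shown because these genes were detected at very different levels and their windows lie far apart in CG content. They are printed 5' to 3' on each gene's strand, from chr12:7711183-7711432 (forward) and chr6:73354277-73354526 (reverse) of GRCh38.p14, with CG dinucleotides in capitals.
DPPA3: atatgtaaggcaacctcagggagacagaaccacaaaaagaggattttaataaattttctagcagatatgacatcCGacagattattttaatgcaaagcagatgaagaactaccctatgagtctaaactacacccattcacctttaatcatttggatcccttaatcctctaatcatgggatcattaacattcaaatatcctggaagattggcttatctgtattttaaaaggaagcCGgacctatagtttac
DPPA5: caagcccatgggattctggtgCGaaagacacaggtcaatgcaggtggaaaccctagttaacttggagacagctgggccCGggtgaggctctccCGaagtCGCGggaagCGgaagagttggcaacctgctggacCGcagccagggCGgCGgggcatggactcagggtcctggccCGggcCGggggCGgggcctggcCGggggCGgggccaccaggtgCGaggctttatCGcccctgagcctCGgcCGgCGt
The DPPA3 window holds 2 CG dinucleotides, fewer than most, since 14.7% of the 35116 windows hold fewer. The DPPA5 window holds 19, and 65.4% of windows hold fewer. No methylation was measured in these libraries.

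DNMT3L has 13 merged exons on the reverse strand at chr21:44246339-44262216. Its counts were 569 and 539 in 2-D and 367 and 261 in 3-D, or 16.5, 17.5, 17.8 and 14.5 CPM. The 3-D libraries were the highest and the lowest of the 4, so the conditions overlapped. DNMT3L had a log2 fold change of -0.06 (SE 0.10, 95% interval -0.27 to 0.15, adjusted p = 0.776) and turned to 0.07 without the second 3-D library. The antisense gene DNMT3L-AS1 shares 241 exonic bases with DNMT3L and had 100 and 85 counts in 2-D and 42 and 37 in 3-D, a log2 fold change of -0.46 that was not called (adjusted p = 0.163).

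DPPA3 has 4 merged exons on the forward strand at chr12:7711433-7717559. It had 207 and 229 counts in 2-D and 143 and 103 in 3-D, or 6.00, 7.42, 6.94 and 5.73 CPM. Each condition had a higher and a lower library, and the ranges overlapped. For DPPA3 the log2 fold change was -0.07 (SE 0.14, 95% interval -0.38 to 0.24, adjusted p = 0.837), and it turned to 0.08 without the second 2-D library and to 0.05 without the second 3-D library. These counts are uncertain, since 96.2% of the DPPA3 transcript matches a transcript of another annotated gene at 98.5% identity. That copy has no entry in the count data. The pseudogene DPPA3P2, counted under its own identifier, had 8 to 17 counts per library.

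DPPA5, with 3 merged exons on the reverse strand at chr6:73353063-73354276, had 4 counts in each 2-D library and 2 and 0 in the 3-D libraries. Pooled, the level in 2-D was 2.36 times that in 3-D, with an exact 95% counting interval from 0.471 to 22.8. The interval spans no difference, and at this depth neither its presence nor a change can be read from such counts.

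SUSD2 encodes a sushi-domain membrane protein and lies on the forward strand at chr22:24181487-24189106 with 12 merged exons. It had 219 and 220 counts in 2-D and 172 and 151 in 3-D, or 6.35 and 7.13 CPM against 8.35 and 8.41 CPM. Both 3-D libraries were above both 2-D libraries, and they were close to each other. The log2 fold change was 0.32 (SE 0.11, 95% interval 0.07 to 0.56, 1.25-fold), with an unadjusted p of 0.0159 and an adjusted p of 0.12, so SUSD2 was not called. Its adjusted p was between 0.113 and 0.565 under the alternatives that gave one.

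**Figure D2:**
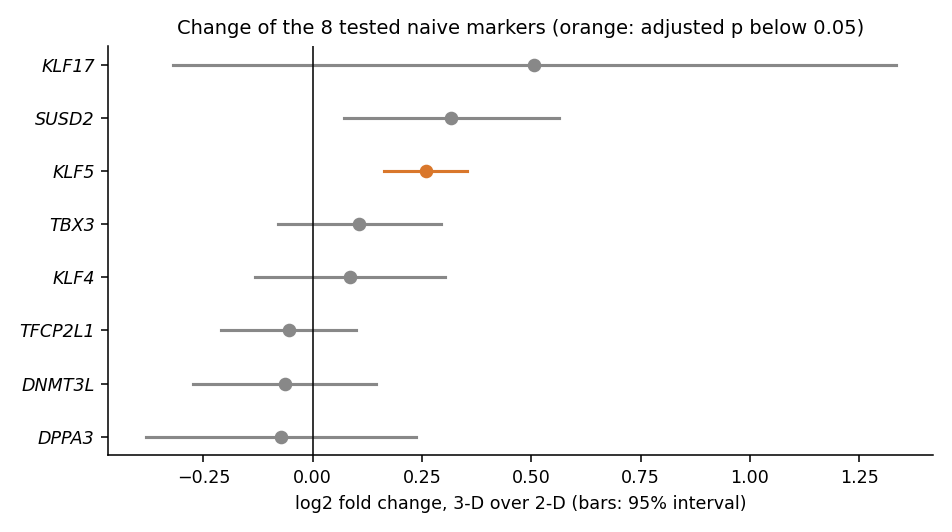
Log2 fold change of 3-D over 2-D for the 8 tested markers (points) with 95% intervals (lines) from the edgeR quasi-likelihood fit over all tested genes, with 0 marking no change. The intervals of KLF5 (0.16 to 0.35) and SUSD2 (0.07 to 0.56) lie above 0, the other 6 cross it, and KLF17 has the widest.

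To compare levels between genes, CPM was divided by the merged exon length in kilobases. KLF5 stood first at 14.1 CPM per kb, above 85.1% of the tested genes, and was followed by DNMT3L at 8.92 and DPPA3 at 5.93 CPM per kb. KLF4, TBX3 and TFCP2L1 came next at 2.62, 2.5 and 2.41 CPM per kb, close to the middle of the tested genes, and neighbours among these 3 overlapped over their 4 libraries. SUSD2 had 1.5 CPM per kb. KLF17 had 0.266 CPM per kb, with 9.64% of the tested genes lower, and DPPA5 and ESRRB had 0.130 and 0.0101. KLF17 and DPPA5 overlapped, as did DPPA5 and ESRRB, and all other neighbours in this order lay apart in every library. The 10 markers thus spanned from a well expressed gene to genes at the limit of detection. KLF17, DPPA5 and ESRRB, which the naïve label would place among expressed genes in human or mouse naïve cells, were low in both conditions. DPPA5 and ESRRB were at or near the limit of detection, and KLF17 was detected in every library with 16 to 29 counts.

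**Figure D3:**
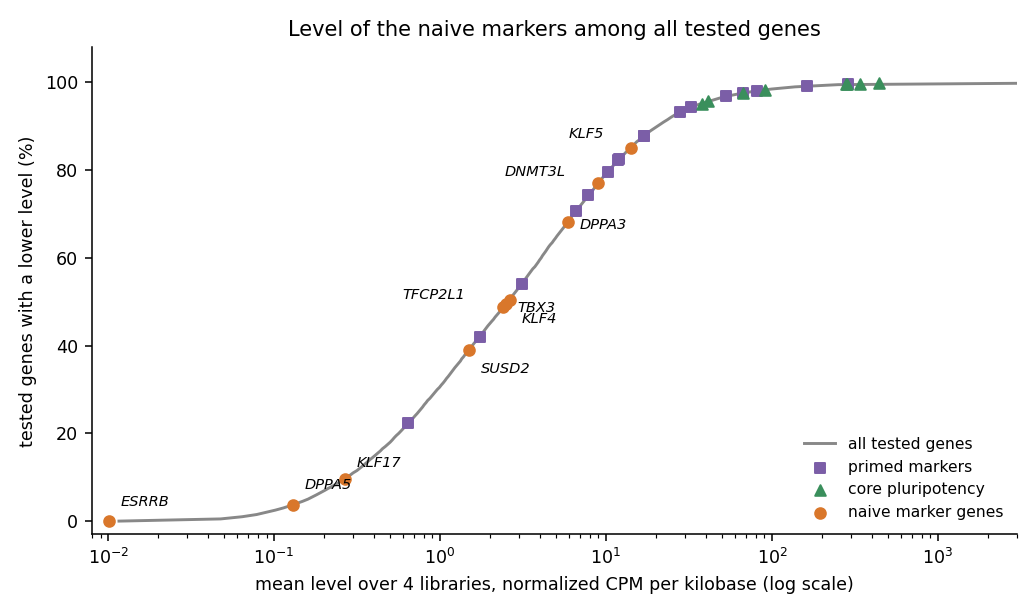
Mean level over the 4 libraries in CPM per kb (log axis) of the 10 markers (orange), the primed markers (purple) and the core genes (green), against the share of tested genes with a lower level in percent (grey line). KLF5 lies above 85.1% of the tested genes, KLF4, TBX3 and TFCP2L1 near the middle, and KLF17, DPPA5 and ESRRB at the bottom.

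RefSeq promoter windows were found for 7 of the markers, 10 windows in all since KLF5 has 2 and ESRRB 3. Their CG counts ran from 2 in DPPA3 to 32 in TFCP2L1, beside a median of 11 over all windows, and KLF4 had 25 and KLF17 had 11. The letters CACCC, the core of the box that Krüppel-like factors bind, were present on either strand in 9 of the 10 windows, all but that of KLF4, and in 54.7% of all windows. The letters TATAAA were in 2 windows, the first of KLF5 and the first of ESRRB, and in 10.7% of all. The octamer ATGCAAAT bound by POU factors was in 0 of the 10 and in 1.6% of all. These matches describe letters only and say nothing of binding.

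Among 21 further naïve markers, 16 were tested and 0 were called in either direction by the edgeR quasi-likelihood test, with 3 at an unadjusted p below 0.05 (21.3% of all tested genes) and a median log2 fold change of -0.03. Of all tested genes, 7.9% were called. Other settings called up to 2 of the further naïve markers, and DESeq2 called 0. DPPA4, a chromatin protein of pluripotent cells and the most abundant of the list at 141 CPM per kb, was at 720 ± 11.9 CPM in 2-D and 676 ± 9.83 CPM in 3-D (SD, n = 2; log2 fold change -0.09, adjusted p = 0.0907). ZNF729 and HORMAD1 had no count in any library. The list thus held abundant and undetected genes side by side, as the 10 markers did.

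All 8 core pluripotency genes were tested, and 2 rose, where 4.54% of all tested genes were called higher in 3-D. L1TD1, an RNA-binding protein of pluripotent cells, rose from 993 ± 1.08 to 1153 ± 28.6 CPM (SD, n = 2; log2 fold change 0.21, SE 0.03, adjusted p = 0.00111), and PODXL, a surface sialomucin, rose by 0.13 (adjusted p = 0.0119). The most abundant, LIN28A, an inhibitor of let-7 maturation, had a log2 fold change of 0.00076 (SE 0.03, adjusted p = 0.994). The median of the list was 0.09. The count of core genes called was 1, L1TD1, without either of the 2-D libraries, 4 without the first 3-D library and 5 without the other.

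Of 18 primed markers, 17 were tested, 6 rose and 0 fell, with a median log2 fold change of 0.12. Over all tested genes, 7.9% were called and 4.54% were called higher in 3-D. SFRP2, a secreted Wnt antagonist, rose from 95.5 to 116 CPM (log2 fold change 0.28, adjusted p = 0.000222), and the surface protein THY1 (0.22, adjusted p = 0.00453) and the zinc finger factor SALL2 (0.21, adjusted p = 0.000945) also rose. TCF7L1, a repressor at Wnt targets, rose by 0.25 (adjusted p = 0.00879), and N-cadherin, CDH2, by 0.12 (adjusted p = 0.034). DNMT3B, a de novo methyltransferase and a partner of DNMT3L, rose from 1049 to 1181 CPM (0.17, adjusted p = 0.00429). CD24, a surface marker of primed cells, was the most abundant of the list at 287 CPM per kb and changed by -0.02 (adjusted p = 0.735). FGF5 had 2 counts in 1 library of 2-D and 0 in the others. All primed markers but FGF5 were thus detected in both conditions. Without the first 3-D library, 9 were called higher and 1, SOX11, lower, and with library size scaling 5 were higher and SOX11 was lower. Without either 2-D library, 4 were called. Whether the lists differed from each other was not tested. Counts of called genes cannot be compared directly between lists or with all tested genes, since the SE depends on abundance. PODXL, with a level above 99.7% of the tested genes, was called at 0.13 (SE 0.03). SUSD2, above 39.1% of them, was not called at 0.32 (SE 0.11).

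**Figure D4:**
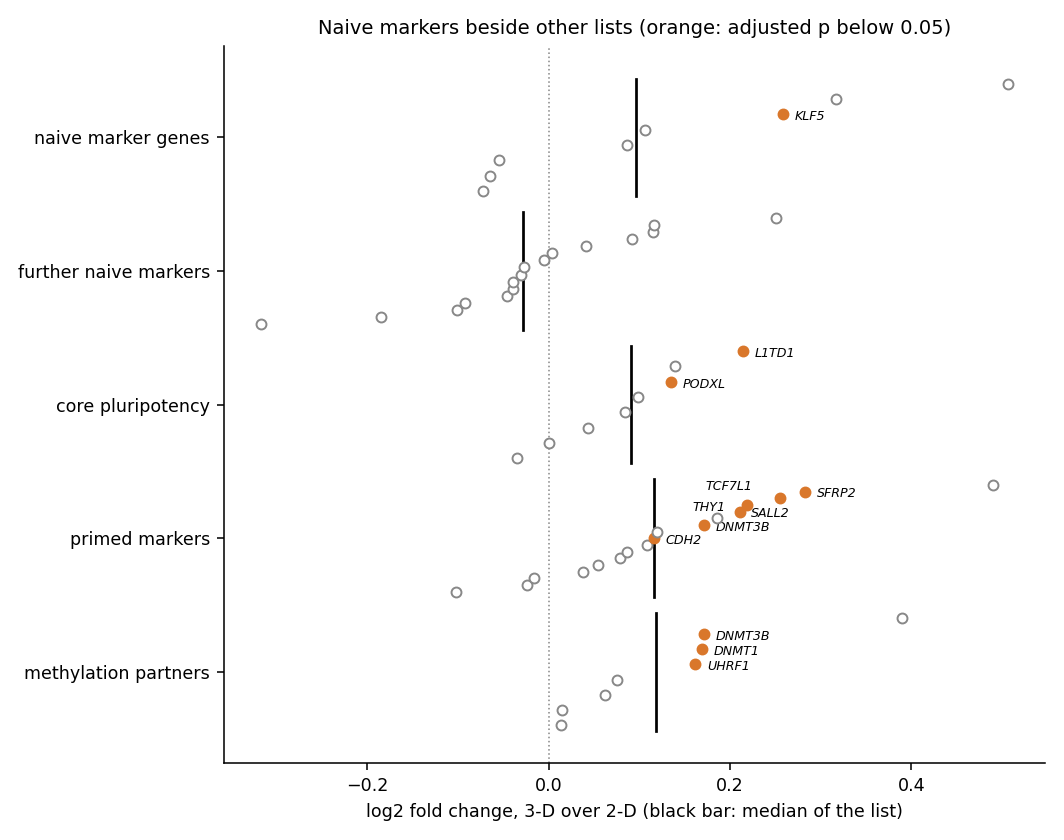
Log2 fold change of 3-D over 2-D for each tested gene (points) of the marker lists and of the 10 markers, with a row per list, called genes in orange and a black bar at the median of the list, with the methylation genes as the last row. No gene of the further naïve markers was called, KLF5 was called among the 10 markers, and 6 called primed markers lie between 0.12 and 0.28.

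Of 8 genes that write, maintain or remove DNA methylation, the process in which DNMT3L and DPPA3 act, 3 rose and 0 fell. Over all tested genes, 4.54% were called higher in 3-D. The 3 that rose were DNMT3B, the maintenance enzyme DNMT1 (254 to 286 CPM, log2 fold change 0.17, adjusted p = 0.00516) and UHRF1 (0.16, adjusted p = 0.0219). UHRF1 brings DNMT1 to DNA and is the target of DPPA3. All 8 had a log2 fold change above 0, with a median of 0.12, but TET3 (0.01, SE 0.05) and TRIM28 (0.02, SE 0.04) were near 0. Over the alternatives, the lowest values of TET1 (-0.002), TET3 (-0.051) and TRIM28 (-0.049) were below 0. With library size scaling the median was 0.05. The edgeR likelihood ratio test called 1 of the 8, and DESeq2 called 2. DNMT3B was the most abundant of them per kb. Without the first 2-D library, UHRF1 alone was called, and without the other, DNMT3B alone was.

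Of 19 genes of the LIF, Wnt and ERK inputs that the medium acts on, 2 rose, 1 fell and the median was 0.02. In either direction, 7.9% of all tested genes were called. The kinase GSK3A rose by 0.26 (edgeR quasi-likelihood adjusted p = 0.0121) together with TCF7L1. MAP2K1, which encodes the kinase MEK1 that MEK inhibitors act on, fell by 0.15 (adjusted p = 0.0432). The edgeR likelihood ratio test called 0 genes of this list lower, so the MAP2K1 call was lost with it. The most abundant, CTNNB1 or beta-catenin, was at 593 ± 5.22 CPM in 2-D and 551 ± 11.6 CPM in 3-D (SD, n = 2; adjusted p = 0.0519). The count called was 0 without the second 2-D library, 2 without the first, 7 without the first 3-D library and 4 without the other.

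Among 15 relatives of the Krüppel-like markers, 13 were tested and KLF7 rose, from 96.4 to 107 CPM (log2 fold change 0.15, adjusted p = 0.0149). That was 1 call of 13 tested, where 7.9% of all tested genes were called. KLF7 was also the most abundant of them at 10.6 CPM per kb, below KLF5. The call was lost without either 2-D library, with library size scaling, with the edgeR likelihood ratio test and with DESeq2. ESRRA, a relative of ESRRB active in energy metabolism, fell from 28.3 to 23.9 CPM (log2 fold change -0.24, adjusted p = 0.0388), a call that was lost without either 2-D library, without the second 3-D library, with the likelihood ratio test and with DESeq2. The relative ESRRG was not called (0.35, adjusted p = 0.418), and ESRRA at 8.43 CPM per kb was far above ESRRB. None of the 5 relatives of TFCP2L1 was called, the most abundant being UBP1 at 15.6 CPM per kb (0.10, adjusted p = 0.1), nor was any of the 4 tested sushi-domain relatives of SUSD2 or the 2 tested relatives of DPPA5. At an unadjusted p below 0.05, which 21.3% of all tested genes passed, the edgeR quasi-likelihood test gave 1 TFCP2L1 relative and 0 of the SUSD2 and DPPA5 relatives. DESeq2 called 0 of these 3 groups, and 1 TFCP2L1 relative was called without the first 3-D library. Of 3 relatives of TBX3, only TBX5 was tested, with 0.111 CPM per kb and no call (adjusted p = 0.786).

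Of the 20 protein-coding genes that flank the markers, 17 were tested and 2 were called, CABIN1 and GLI2. Of all tested genes, 7.9% were called. KLF18, which lies 2681 bases from KLF17, had 48 and 40 counts in 2-D, 44 and 30 in 3-D and a log2 fold change of 0.51 (adjusted p = 0.241). GDF3, 15658 bases from DPPA3, stayed near 0 at -0.0048 (adjusted p = 0.974). Neither KLF18 nor GDF3 was called. CABIN1, 2859 bases from SUSD2, had a log2 fold change of 0.17 (adjusted p = 0.00502). GLI2, 223934 bases from TFCP2L1, had 0.22 (adjusted p = 0.0237), and CLASP1, on the nearer side at 52574 bases, was not called (0.03, adjusted p = 0.704). The genes beside KLF5, PIBF1 at 38515 bases and KLF12 at 608548 bases, were not called either (adjusted p = 0.949 and 0.534).

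Markers of other cell types were summed beside these results, and in bulk libraries fewer cells of a type and less RNA per cell cannot be told apart. The 10 trophoblast markers, of interest beside KLF5, summed to 4.78 to 5.86 CPM in 2-D and 6.35 to 6.51 CPM in 3-D, with CGA and VGLL1 at 0 in every library. Of the 6 tested, 4 had a log2 fold change above 0 and 2 below 0, GATA2 at -0.03 and TFAP2A at -0.21. The edgeR quasi-likelihood test and DESeq2 called 0 of the 6. In the edgeR quasi-likelihood test 1 was at an unadjusted p below 0.05, as were 21.3% of all tested genes. It had 21 to 26 counts per library. That gene, HAND1, had a log2 fold change of 0.98 (adjusted p = 0.0695) and was called with the edgeR likelihood ratio test, without the filter and with a filter of 10 counts in every library (adjusted p from 0.0378 to 0.33 over the alternatives). The 4 endoderm markers summed to 5.77 to 6.28 CPM and 7.48 to 7.85 CPM, and GATA6 had a log2 fold change of 1.0 that the edgeR quasi-likelihood test did not call (adjusted p = 0.0516). GATA6 was called with the likelihood ratio test, without the filter, with the filter of 10 counts, with the replicate block and without the second 3-D library (adjusted p from 0.00329 to 0.317 over the alternatives). The 5 germ cell markers summed to 6.61 CPM in both 2-D libraries and to 6.94 to 7.07 CPM in 3-D, nearly all of it PRDM1. The 5 mesoderm markers summed to 66.6 to 67.0 CPM and 70.6 to 71.4 CPM, and the 3 neural markers, nearly all NES, to 576 to 582 CPM and 599 to 602 CPM.

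The 5 fibroblast markers summed to 129 to 130 CPM in 2-D and 155 to 172 CPM in 3-D. COL1A1 (log2 fold change 0.29, adjusted p = 0.000779) and COL3A1 (0.73, adjusted p = 0.000704), collagens that many cells make, both rose. PDGFRA, also tested, was not called (log2 fold change 0.30, edgeR quasi-likelihood adjusted p = 0.662). So 2 of the 3 tested rose, where 4.54% of all tested genes were called higher in 3-D. DCN had 2 to 6 counts per library, and LUM had 3 and 10 counts in 2-D and 5 and 17 in 3-D. The part of any of these cell types in the KLF5 and SUSD2 values was not tested.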

How the data were processed

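RNA-seq libraries of Elf1 cells, 2 of 2-D and 2 of 3-D cultures, were analysed. The authors trimmed reads with Trim Galore! 0.6.3, mapped them to hg38 with HISAT2 2.1.0 and assigned them to GENCODE release 30 genes with featureCounts 1.6.4. The deposited counts are raw read counts per gene and library. The authors also deposited a table with a normalized signal per library, which is the count divided by a DESeq2 size factor, and with fold changes, errors and p-values of their own comparison, which were not used. Of 60564 identifiers, 60295 matched GENCODE release 44, and the other 269 held 0.122% of the counts.

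Counts were tested with the edgeR 4.0.16 quasi-likelihood test (R 4.3.3) after TMM scaling and filterByExpr, with condition as the only term and Benjamini-Hochberg adjustment over all 22555 tested genes. The code was tested on simulated data. Alternatives used DESeq2 1.42.0, limma 3.58.1 on the deposited normalized signal, other scalings and filters, and each library left out. Copies of marker transcripts were searched with minimap2. Replicate libraries differed by more than sampling noise (chi-square over its degrees of freedom 2.51 in 2-D and 4.15 in 3-D) and were counted separately. All 10 markers are named. Of other lists, called genes and the most abundant gene per kb are named, and of the rest, genes that overlap or neighbour a marker. Other genes (FGF5, SOX11, ESRRG, TET1, TET3, TRIM28, HAND1, GATA2, TFAP2A, GATA6, PDGFRA and the genes at 0 or near it) were named after their values were seen. The markers and lists were chosen with earlier results of these data known. Intervals of pooled counts cover counting error only.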

Additional observations from a re-analysis of the deposited data

How the results depend on the processing

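Of the 112 log2 fold changes of the 8 tested markers under the 14 alternatives, 3 turned, none of them called. Of those with an adjusted p, 105 kept their direction and their side of the threshold, and the 4 without one kept their direction. The values that turned were DPPA3 (0.084 without the second 2-D library and 0.052 without the second 3-D library) and DNMT3L (0.070 without the second 3-D library). With each library left out in turn, DPPA3 ranged from -0.22 to 0.084 and DNMT3L from -0.22 to 0.070. The number of markers called was 1 under every alternative. DESeq2 gave no adjusted p for KLF4, KLF17, DPPA3 and SUSD2.

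The number of all genes called was 1782, against 1139 with the likelihood ratio test, 795 with DESeq2 and 792 to 2390 with a library left out (846 without the first 2-D library, 792 without the other, 2390 and 2159 without the 3-D libraries). Scaling by library size alone moved the median of all genes by -0.06, and then 514 genes were called higher and 1872 lower in 3-D, where 57.5% of calls were higher with TMM. Of the further naïve markers, 0 were called, against 1 without legacy mode, without the filter or with limma at either pseudocount, 2 by library size alone and 0 to 1 with a library left out. Of the core genes, 2 were called, against 1 with the likelihood ratio test or library size alone, 4 without the filter and 1 to 5 with a library left out. Primed markers ranged from 4 to 10 with a library left out. In such fits the lone library is assumed to vary like the other condition. The causes were not tested.

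Deviations from the condition mean were not correlated between same-numbered libraries (r = -0.0079 over 22555 genes). The labels do not say whether a replicate number marks a shared culture, and this correlation cannot settle it. With a replicate block, 2167 genes, 4 core genes and 1 marker were called, and KLF5 had a log2 fold change of 0.26. Depth limits KLF17, DPPA5 and ESRRB, with at most 29 counts per library.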
